A study of Mus musculus with 6 samples.

Results

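The genes described here are the epidermal growth factor (EGF) receptor family of mouse tail epidermis: the receptors Egfr, Erbb2 and Erbb3, the ligands Areg, Ereg, Epgn, Btc, Hbegf and Tgfa, and the receptor inhibitor Errfi1. They were chosen by name, and their probes by the RefSeq accession that the array files pair with each probe, which gave 12 probes for 10 genes, out of 55681 probes and 21368 genes named in this way. All 12 probes were well above background on all 6 arrays. The samples were total epidermis of wild-type C57BL/6 mice, lifted from the dermis of tail skin with EDTA. Young epidermis was taken at 8 weeks (3 samples). Aged epidermis was taken at 22 months for replicate 1 and at 25 months for replicates 2 and 3. Sex is not in the labels, nor whether samples are separate animals, so part of the spread between samples may be technical. Every p-value below rests on this spread, between 3 samples per group in fits with all 6 arrays. Fewer samples remain where arrays are left out. Without aged replicate 1 the aged group is replicates 2 and 3. Without replicate 1 of both groups each group is its replicates 2 and 3.

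EGF family ligands are made as membrane-anchored precursors and are released by metalloproteases, after which they bind receptors on the same or nearby cells. EGFR and ERBB2 are tyrosine kinases that signal as dimers through the RAS and MAP kinase cascade, while ERBB3 has a weak kinase and signals through partners. In epidermis the pathway is known for driving the division of basal keratinocytes, for wound closure and for the control of hair growth. Several ligand genes are themselves induced by receptor activation, as is Errfi1, whose product binds the receptor kinase and shuts it off.

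Values are log2 of the scanner's processed signal minus the 75th percentile of the array, so 0 is the level of a probe at that percentile. A level is compared between arrays for 1 probe only, since probes differ in how well they bind. Each array had 50.02% to 54.38% of its probes well above background, with the 75th percentile at 229.9 to 300 signal units, and the 6 arrays shared 1 slide and 1 scan. Precision is limited by having 6 arrays. Markers of the labelled tissue were present: 6 of 6 basal and 5 of 5 measured suprabasal keratinocyte markers were well above background on every array. Aged replicate 1 stands apart from aged replicates 2 and 3 in several ways. It and young replicate 1 carried the Y-linked transcript Ddx3y, at 1.90 and 2.17, which was not well above background on the other 4 arrays. The summed signal of 8 Langerhans cell markers was 3.99 times the 75th percentile on aged replicate 1, against 8.63 to 15.6 on the other arrays. For 7 fibroblast markers the sum was 20.6 on aged replicate 1 and 2.55 to 8.18 elsewhere, with Pdgfra, Lum and Dpt never well above background. This sum rests on few genes: 3 of the 7 were above background on aged replicate 1, and the median of the 7, as a deviation from the young mean, was -1.39 there, the lowest of the 6 arrays. Hair shaft and inner root sheath markers, 11 measured, summed to 831.0 to 1311 on the young arrays, and to 718.6, 137.6 and 43.9 on aged replicates 1, 2 and 3. For this reason each result is given with all 6 arrays. The fit without aged replicate 1 is added for members and for some pathway genes, but not for every gene that moved.

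With all 6 arrays none of the 10 members passed a limma adjusted p of 0.05 between aged and young epidermis, and 1, Tgfa, had an unadjusted p under 0.05. Over all 14136 genes tested 11 passed (0.0778%), 6 higher (0.0424%) and 5 lower (0.0354%), and 17.5% had an unadjusted p under 0.05. With the replicate number as a block 0 genes passed, with 2690 at an unadjusted p under 0.05. With scaling to each array's median 21 genes passed, 15 of them higher, and with normexp background correction 15 passed, 11 of them higher. The median difference was 0.0040 over the 10 members and 0.09 over all genes tested. Egfr and Erbb2 varied little between arrays. Of the 6 ligands, 4 were lowest on the 22-month array and highest on both 25-month arrays. Btc was lowest on the 22-month array without being highest on both 25-month arrays, and Tgfa read lower on each aged array than on any young one.

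**Figure D1:**
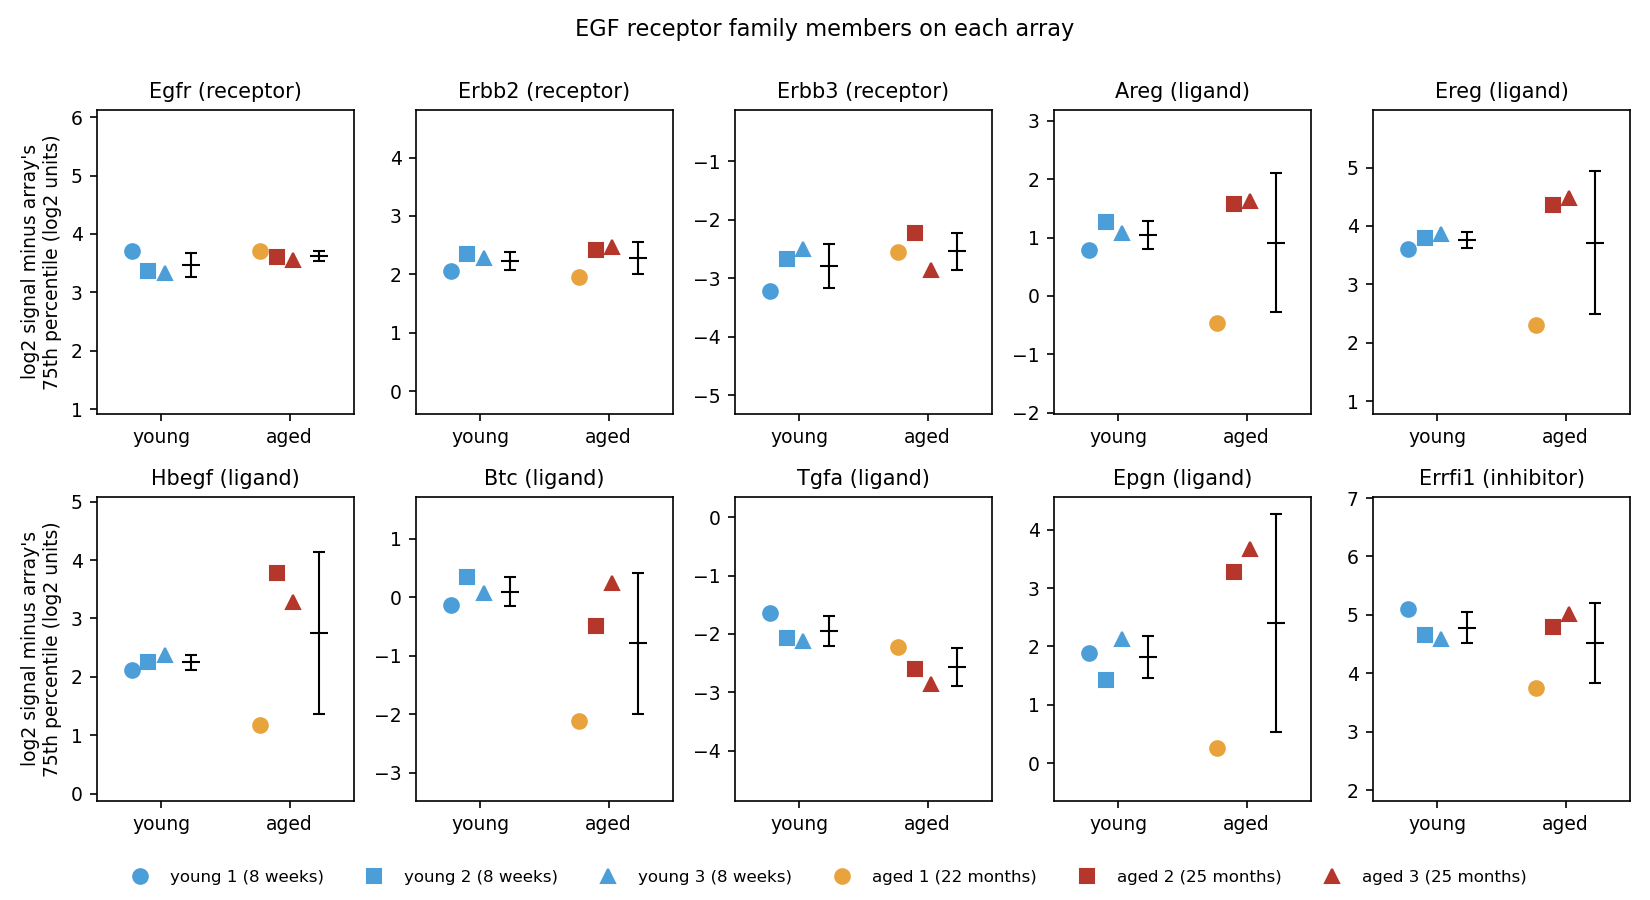
Log2 signal minus the array's 75th percentile (y axis, log2 units, the same span in each panel) of the 10 members on the 3 young and 3 aged arrays; black bars are mean ± SD of each group. Egfr and Erbb2 vary little, while Areg, Ereg, Hbegf and Epgn are lowest on the 22-month array and highest on the 25-month arrays. Erbb2 has this order too, over a smaller range.

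Among the receptors, Egfr, which binds all 6 ligands studied here, read 3.71, 3.37 and 3.33 on young replicates 1, 2 and 3 and 3.71, 3.60 and 3.55 on aged replicates 1, 2 and 3. Young replicate 1 was as high as the highest aged array, so the groups overlapped. The difference, aged minus young, was 0.15 ± 0.14 log2 units (SE, n = 3 arrays per group, limma adjusted p = 0.606), with a 95% interval from -0.20 to 0.50. This probe matches the longer Egfr transcript (NM_207655). The 2 probes of the shorter transcript (NM_007912), which encodes a truncated receptor, differed by 0.03 ± 0.13 and 0.04 ± 0.17, and neither passed (limma adjusted p = 0.939 and 0.925).

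Erbb2, the family member without a known ligand and the preferred partner of the others, read 2.06, 2.35 and 2.27 on the young arrays and 1.96, 2.41 and 2.47 on the aged arrays. Aged replicate 1 was the lowest of the 6 and aged replicates 2 and 3 were the highest. The groups overlapped, with a difference of 0.05 ± 0.18 (95% interval -0.38 to 0.48, limma adjusted p = 0.900), and the sign turned under quantile normalization (-0.023). Without aged replicate 1 the difference was 0.21 ± 0.14 (limma adjusted p = 0.407). Erbb3, the neuregulin receptor, read -3.22, -2.67 and -2.50 on the young arrays and -2.55, -2.22 and -2.85 on the aged arrays. These values overlapped, at 0.25 ± 0.25 (95% interval -0.35 to 0.85, limma adjusted p = 0.612), and lay nearer the lower limit of detection, where the lowest signal of a probe above background was -4.97 to -4.40 across arrays.

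The arrays carry the probes of Egfr, Erbb2 and Tgfa on 10 spots each, of which 8 to 10 passed the scanner's outlier flags. Spots of 1 array share its labelling and hybridisation, so their spread covers spot noise only. The SD between spots on 1 array was 0.042 to 0.062 log2 units for Egfr, 0.029 to 0.047 for Erbb2 and 0.095 to 0.195 for Tgfa. The SD between the 3 young arrays was 0.209, 0.153 and 0.263 for the same genes. The low Erbb2 of aged replicate 1 was seen on all its spots, none of which reached the lowest spot of aged replicate 2.

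**Figure D2:**
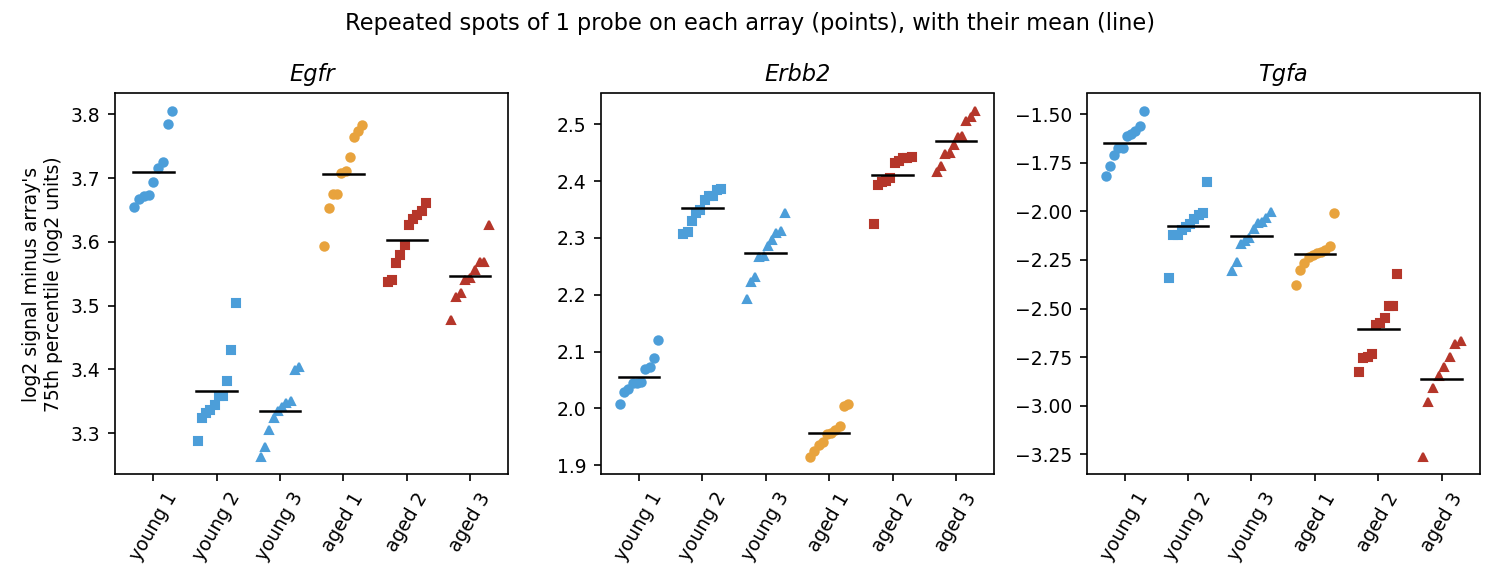
Log2 signal minus the array's 75th percentile (y axis, log2 units) of each repeated spot of the Egfr, Erbb2 and Tgfa probes on the 6 arrays, in order of value, with their mean as a line. Spots of 1 array cluster tightly for Egfr and Erbb2, with an SD of at most 0.062, and Tgfa steps down from the young to the 25-month arrays.

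Of the ligands, Epgn, Ereg, Areg and Btc are consecutive protein-coding genes on chromosome 5 in the GRCm38.p6 annotation, and Hbegf and Tgfa lie elsewhere. RefSeq promoter sequences (GRCm38.p6) matched 7 of the 10 members, without Erbb3, Ereg and Hbegf. The 250 bases before the start of Areg, Epgn and Btc are shown because these neighbours include ligands that varied together across the arrays and 1, Btc, that partly did not; capitals mark matches to the motifs searched. Areg is at chr5:91139349-91139598 on the plus strand, Epgn at chr5:91027267-91027516 on the plus strand and Btc at chr5:91402995-91403244 on the minus strand.
Areg: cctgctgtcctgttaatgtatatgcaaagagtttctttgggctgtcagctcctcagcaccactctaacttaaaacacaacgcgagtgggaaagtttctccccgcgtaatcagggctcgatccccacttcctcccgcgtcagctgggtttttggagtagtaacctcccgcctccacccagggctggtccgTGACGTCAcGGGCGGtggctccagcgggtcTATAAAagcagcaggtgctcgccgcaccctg
Epgn: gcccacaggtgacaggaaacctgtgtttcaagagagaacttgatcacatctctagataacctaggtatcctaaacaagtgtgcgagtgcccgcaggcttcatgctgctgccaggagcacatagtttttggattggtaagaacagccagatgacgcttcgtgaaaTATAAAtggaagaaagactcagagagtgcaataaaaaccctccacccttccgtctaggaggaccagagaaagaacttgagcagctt
Btc: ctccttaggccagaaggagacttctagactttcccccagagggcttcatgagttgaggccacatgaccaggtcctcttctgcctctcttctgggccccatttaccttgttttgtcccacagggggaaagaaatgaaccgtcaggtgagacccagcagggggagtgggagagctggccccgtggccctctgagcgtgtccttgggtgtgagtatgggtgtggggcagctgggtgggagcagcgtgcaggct
The motifs, searched on both strands, were TATAAA, the cyclic AMP response element TGACGTCA, the AP-1 site TGANTCA, the GC box GGGCGG and the CArG box of serum response factor. In these windows no match of 1 motif overlapped a match of another. Areg held TATAAA from 31 to 26 bases before its start, TGACGTCA from 61 to 54 and GGGCGG from 52 to 47. Epgn held TATAAA from 86 to 81 bases before its start, and Btc held none of the 5. The Errfi1 window, not printed, held TATAAA from 28 to 23 bases before its start and TGACGTCA from 51 to 44. It also held GGGCGG from 152 to 147, from 97 to 92 and from 93 to 88. Of the other windows not printed, those of Tgfa and Egfr held only GGGCGG, and that of Erbb2 held none of the 5. Among all 32851 RefSeq windows of this length, 12.4% held TATAAA, 1.55% TGACGTCA, 6.75% TGANTCA, 32.7% GGGCGG and 1.47% the CArG box. A match is a string of letters and not a measured site.

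Areg, the amphiregulin gene, read 0.79, 1.26 and 1.08 on the young arrays, -0.46 on aged replicate 1 and 1.58 and 1.63 on aged replicates 2 and 3. Ereg, the epiregulin gene next to it, read 3.60, 3.80 and 3.86 on the young arrays, 2.30 on aged replicate 1 and 4.36 and 4.47 on aged replicates 2 and 3. For each gene the 22-month array was below every young array and both 25-month arrays were above every young array. The group means hid this, with differences of -0.13 ± 0.57 for Areg and -0.04 ± 0.58 for Ereg (limma adjusted p = 0.926 and 0.976), the latter turning to 0.04 under scaling to the median. Without aged replicate 1, Areg was 0.56 ± 0.17 higher (1.47-fold, adjusted p = 0.140) and Ereg 0.66 ± 0.14 higher (1.58-fold, adjusted p = 0.0585), and neither passed.

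Epgn, the epigen gene, had the widest range among the members. It read 1.90, 1.42 and 2.13 on the young arrays, 0.26 on aged replicate 1 and 3.27 and 3.66 on aged replicates 2 and 3. The mean of the 25-month arrays was 9.25-fold that of the 22-month array, a comparison of 2 arrays with 1 and so without a test. With all arrays the difference was 0.58 ± 0.89 (95% interval -1.58 to 2.74, limma adjusted p = 0.757). Without aged replicate 1 the difference was 1.65 ± 0.25 (3.14-fold, limma adjusted p = 0.0251), and without aged replicate 3 it was -0.05.

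Hbegf, which encodes heparin-binding EGF-like growth factor, a ligand of healing wounds, read 2.11, 2.25 and 2.38 on the young arrays. On the aged arrays it read 1.17, 3.79 and 3.29, again lowest on the 22-month array and highest on the 25-month arrays. The difference was 0.50 ± 0.66 (limma adjusted p = 0.711) with all arrays. Without aged replicate 1 the difference was 1.29 ± 0.19 (2.45-fold, limma adjusted p = 0.0237), and without aged replicate 2 it was -0.02. Epgn and Hbegf were the 2 of 10 members past the threshold without aged replicate 1, where 5.79% of all genes passed, 1.96% higher and 3.83% lower. In that fit 5 members, the others being Areg, Ereg and Tgfa, had an unadjusted p under 0.05, as did 23.2% of all genes. With replicate 1 of both groups left out, so that no array carried Y-linked transcripts, 0 of 10 members passed by limma and 5 had an unadjusted p under 0.05, against 1.69% (0.509% higher, 1.18% lower) and 25.5% of all genes. In that fit, which also lacks the 22-month sample, Epgn was 1.69 ± 0.29 and Hbegf 1.22 ± 0.21 higher (adjusted p = 0.0755 and 0.0734).

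The same-numbered arrays give the contrast another way. Aged replicate 1 against young replicate 1, the arrays with Y-linked transcripts, differed by -1.25 for Areg, -1.30 for Ereg, -1.64 for Epgn and -0.94 for Hbegf. Aged against young replicates 2 and 3 differed by 0.31 and 0.55 for Areg, 0.56 and 0.61 for Ereg, 1.85 and 1.53 for Epgn and 1.54 and 0.91 for Hbegf. Young replicate 1 was itself the lowest young array for Areg, Ereg, Hbegf, Btc and Erbb2, though not for Epgn, and aged replicate 1 lay below it for each of these 6 genes. Aged replicate 1 is both the only 22-month array and the only aged array with Y-linked transcripts, so age in months, the difference marked by these transcripts, this single sample and its cell makeup cannot be told apart here.

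Btc, the betacellulin gene at the other end of the chromosome 5 group, read -0.14, 0.35 and 0.07 on the young arrays and -2.12, -0.49 and 0.24 on aged replicates 1, 2 and 3. It shared the low value of the 22-month array, while of the 25-month arrays replicate 2 was below every young array and replicate 3 lay within the young range. The difference was -0.88 ± 0.58 (95% interval -2.29 to 0.53, limma adjusted p = 0.450), or -0.22 without aged replicate 1. The genes directly next to the group read differently. Mthfd2l, next to Epgn, was highest on aged replicate 1 (0.92) and lowest on aged replicates 2 and 3 (0.09 and 0.15, limma adjusted p = 0.972). Parm1, next to Btc, differed by -1.88 ± 0.45, with aged arrays below every young one (limma adjusted p = 0.153). Cxcl1 lies farther out, beyond Mthfd2l, and was above background on 5 arrays. It was lowest on aged replicate 1 (-5.49) and highest on aged replicate 2 (-2.17), with aged replicate 3 (-4.09) within the young range.

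Tgfa, the transforming growth factor alpha gene, whose loss is known to give mice wavy hair, was the only member whose groups did not overlap. It read -1.65, -2.07 and -2.13 on the young arrays and -2.22, -2.61 and -2.86 on aged replicates 1, 2 and 3. The nearest values of the groups, -2.13 and -2.22, lay close together. The difference was -0.61 ± 0.22 (1.53-fold lower, 95% interval -1.14 to -0.09), and it did not pass (limma adjusted p = 0.232). Groups did not overlap for 26.7% of all genes tested, 19.2% higher and 7.52% lower in aged epidermis, so 1 of 10 members is below that share. The value lay between -0.79 and -0.46 when single arrays were left out, with adjusted p from 0.0873 to 0.487, and was -0.28 with normexp background correction. The hair marker sum was lower on the same arrays, and lowest on aged replicate 3, and its part in the Tgfa values was not tested. In bulk epidermis fewer cells of a type and less RNA per cell cannot be told apart.

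**Figure D3:**
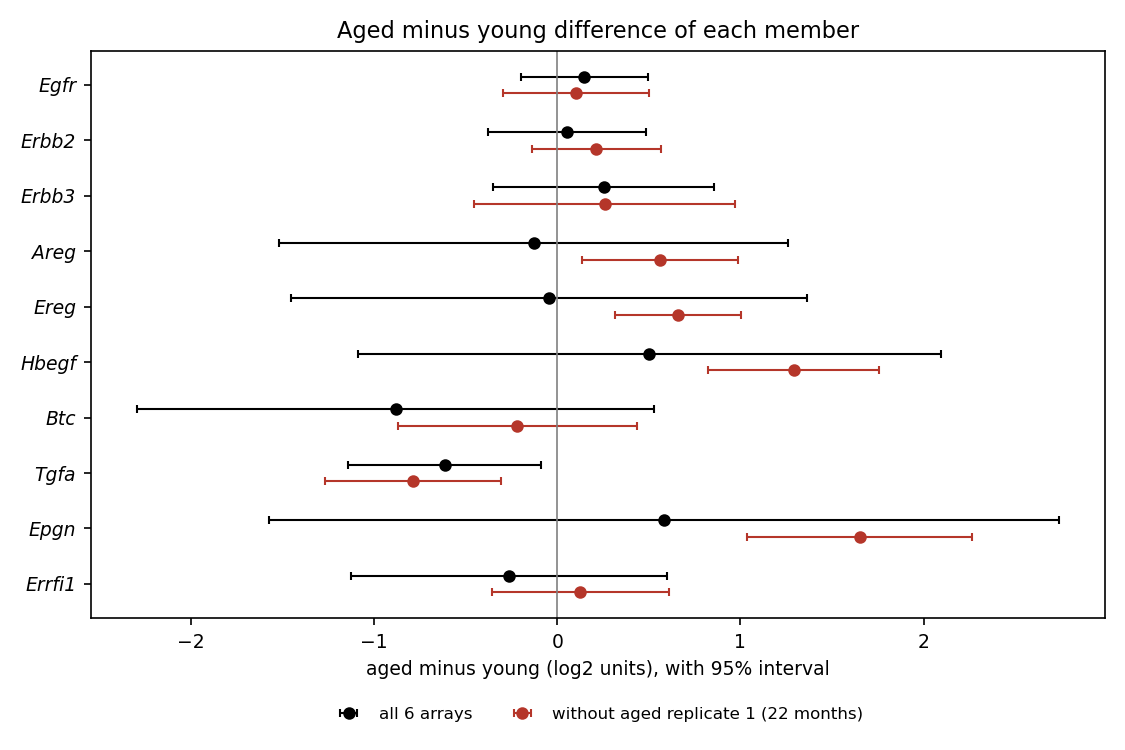
Aged minus young difference of each member (x axis, log2 units) with its 95% interval from limma, with all 6 arrays (black) and without aged replicate 1 (red). Leaving out this array shortens the intervals of Areg, Ereg, Hbegf and Epgn and moves them above 0, while Egfr and Erbb3 change little. Erbb2 moves from 0.05 to 0.21.

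Errfi1, the feedback inhibitor also called MIG6, read 5.09, 4.66 and 4.59 on the young arrays and 3.74, 4.80 and 5.02 on aged replicates 1, 2 and 3. Aged replicate 1 was again the lowest, and aged replicates 2 and 3 lay within the young range. The difference was -0.26 ± 0.35 (95% interval -1.12 to 0.60, limma adjusted p = 0.723), or 0.13 without aged replicate 1.

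Of the 10 members 5 had the order seen in Areg, with the 22-month array below and both 25-month arrays above every young array: 4 of the 6 ligands and Erbb2. This order was noticed in the values and is given as a description. It was met by 970 of the 14136 genes tested (6.86%), while 32% had the 22-month array below and 32.4% had both 25-month arrays above every young array. The 25-month mean was over the 22-month value by 4.17-fold for Areg, 4.34-fold for Ereg, 5.15-fold for Hbegf, 9.25-fold for Epgn, 3.99-fold for Btc and 2.24-fold for Errfi1, and 4.54% of all genes differed by at least 2-fold in that direction. Across the 6 arrays Pearson's r was 0.99 between Areg and Ereg, 0.95 between Epgn and Hbegf and 0.88 between Areg and Epgn. Egfr had r of -0.48 with Areg and -0.18 with Hbegf, while Erbb2 had 0.92 and 0.87 with the same genes. With Areg, r was 0.86 for Btc, 0.82 for Errfi1, 0.08 for Erbb3 and -0.43 for Tgfa. These describe 6 points that share arrays, scaling and age groups. Markers of other cells moved on aged replicate 1 too: Langerhans cell markers were at their lowest sum and 4 of 8 were above background there, and sebaceous gland markers were at their highest sum, 109.6 against 30.3 to 68.7. On the 25-month arrays basal keratinocyte markers summed to 1072 and 1172, against 890.9 to 960.1 on the young arrays and 953.8 on aged replicate 1. T cell markers summed to 12.0 and 8.98 on the 25-month arrays, against 4.30 to 5.67 on the young arrays and 5.92 on aged replicate 1, with Cd3d never well above background. The T cell sum rests on few genes, with 4 and 3 of 5 measured above background on aged replicates 2 and 3. The median of the 5, as a deviation from the young mean, was 0.07 and 0.04 there, against -0.09 to 0.06 on the young arrays. The part of these cells in the ligand values was not tested.

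**Figure D4:**
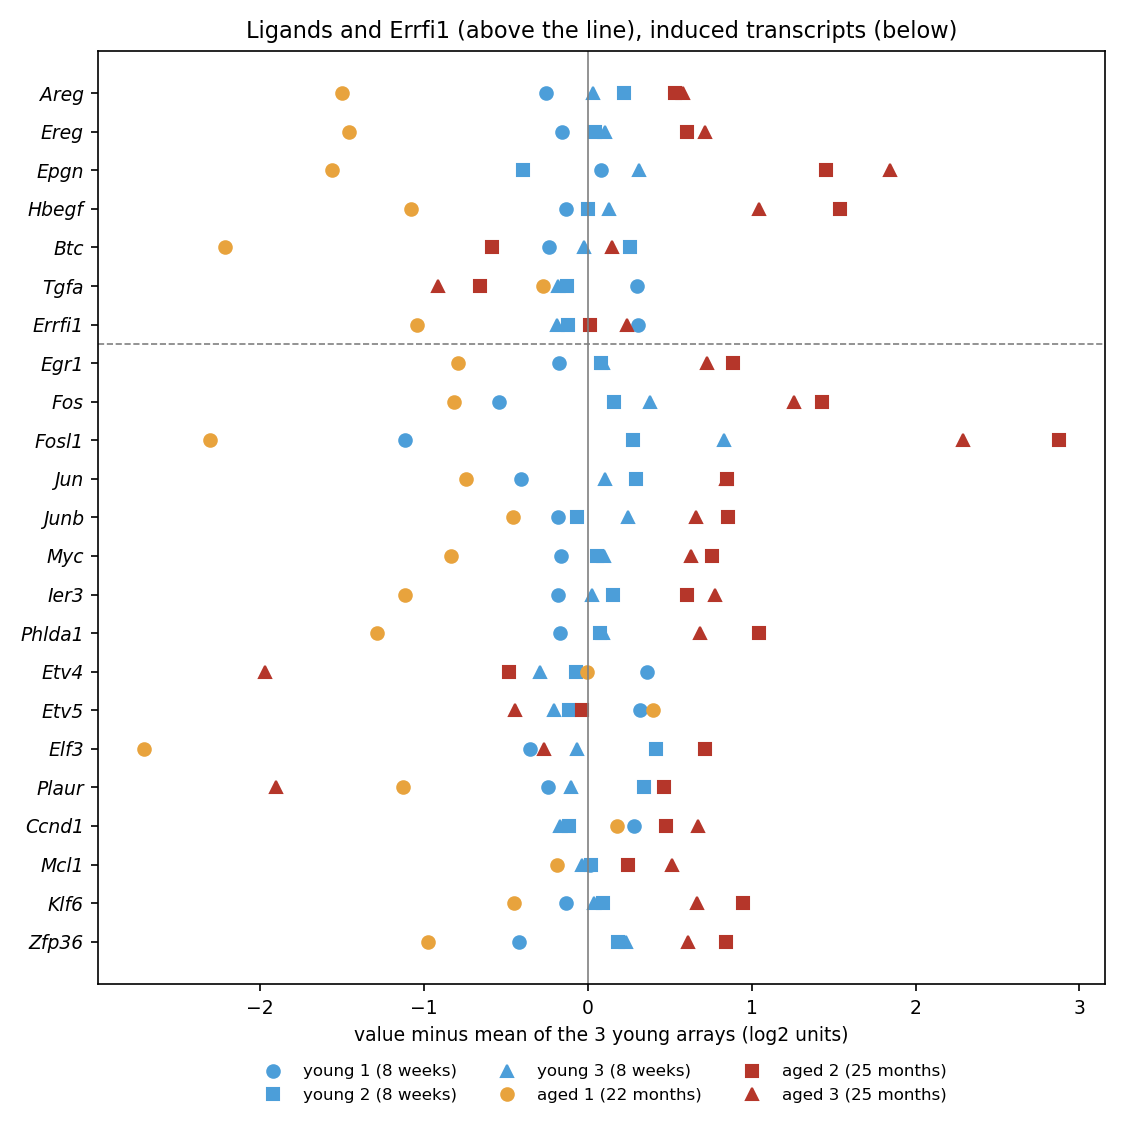
Value on each array minus the mean of the 3 young arrays (x axis, log2 units) for the ligands, Errfi1 and the tested transcripts known to be induced by receptor activation. In 4 ligands and 11 of the 16 induced transcripts the 22-month array lies left of, and both 25-month arrays right of, every young array.

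Among transcripts that receptor activation is known to induce, the same order was met by 11 of 16 tested, where 6.86% of all genes met it. The order was taken from the ligand values on these same arrays, and the list was chosen with earlier results of these data known. The count is therefore a description and no test of receptor activation. These were Egr1, Fos, Fosl1, Jun, Junb, Myc, Ier3, Phlda1, Mcl1, Klf6 and Zfp36, most of them early response genes that many other stimuli also induce. Egr1, a zinc finger transcription factor, read 5.12, 5.38 and 5.39 on the young arrays and 4.51, 6.19 and 6.03 on aged replicates 1, 2 and 3. Fosl1, an AP-1 subunit, had the widest range, with -1.91, -0.52 and 0.04 on the young arrays and -3.10, 2.08 and 1.49 on the aged arrays, and is named here after its values were seen. Young replicate 1, the young array with Y-linked transcripts, was the lowest young array for each of the 11 except Mcl1, and the part of the difference marked by these transcripts was not tested. With all arrays 0 of the 16 passed by limma or had an unadjusted p under 0.05, and their median difference was 0.19. Without aged replicate 1 Egr1 rose by 0.81 ± 0.15, Klf6 by 0.81 ± 0.15 and Phlda1 by 0.86 ± 0.17 (limma adjusted p = 0.0399, 0.0424 and 0.0486), 3 of 16 where 1.96% of all genes were called higher. With replicate 1 of both groups left out these had adjusted p of 0.0782 to 0.0990 and did not pass. Not all induced genes had this order. The ETS factor gene Etv4 read 2.17 to 2.83 on the young arrays and 2.46, 1.98 and 0.50 on the aged arrays, and Ccnd1, the cyclin D1 gene, read 3.53 to 3.98 and 3.87, 4.17 and 4.37. Without aged replicate 1 Etv4 differed by -1.22 ± 0.45 and Ccnd1 by 0.58 ± 0.18 (limma adjusted p = 0.195 and 0.147).

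In the other parts of a list of 83 pathway genes 0 passed by limma in either direction. Of the 77 tested 44 were higher and 33 lower in aged epidermis, where 8955 of all 14136 genes were higher and 5181 lower, and their median was 0.07 against 0.09 for all genes. An unadjusted p under 0.05 was reached by 8 of the 77, 4 in each direction, and by 17.5% of all genes, 1585 higher and 894 lower. Among other members of the family Egf read -2.39 to -1.94 on the young and -1.93 to -1.32 on the aged arrays, at 0.47 ± 0.21 (limma adjusted p = 0.301). Nrg1, the ERBB3 ligand gene neuregulin 1, read 0.72 to 1.59 on the young and -0.04 to 0.87 on the aged arrays, at -0.84 ± 0.32 (limma adjusted p = 0.250), and Nrg2 differed by -0.17 ± 0.15. Erbb4, the fourth receptor gene, has 1 probe, which never rose well above background.

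Among the 7 genes of ligand release, 4 were higher and 3 lower in aged epidermis, with a median of 0.11. Adam17, the main protease that sheds Areg, Ereg, Epgn, Hbegf and Tgfa precursors, differed by 0.25 ± 0.19 (95% interval -0.21 to 0.70, limma adjusted p = 0.507). Without aged replicate 1 Adam17 differed by 0.42 ± 0.14 (limma adjusted p = 0.165). Rhbdf1, which encodes an iRhom that brings this protease to the surface, differed by 0.27 ± 0.18, Adam9 by 0.19 ± 0.11 and the inhibitor gene Timp3 by -0.39 ± 0.20. None of the 7 had the order of the ligands, which 6.86% of all genes tested had. In the relay from receptor to nucleus 18 of 25 genes were higher and 7 lower, with a median of 0.12, where 8955 of all 14136 genes were higher. The kinase gene Braf differed by -0.40 ± 0.12, the exchange factor gene Sos2 by 0.30 ± 0.11 and the transcription factor gene Stat3 by 0.35 ± 0.13, with limma adjusted p of 0.202, 0.250 and 0.243. These were picked for the smallest p of their role, and their groups did not overlap. Of the 25 genes 8 were higher and 1 lower without overlap, as were 19.2% and 7.52% of all genes tested.

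Of 14 genes that control receptor degradation or inhibit the receptor, not all in 1 direction, 3 were higher and 11 lower, with a median of -0.17. Of all 14136 genes 5181 were lower. None of the 14 passed in limma, and 4 had an unadjusted p under 0.05, as did 17.5% of all genes. Usp8, a deubiquitinase that acts on internalised EGFR, differed by -0.72 ± 0.20 (limma adjusted p = 0.181), with -1.89 to -1.19 on the young and -2.38 to -2.13 on the aged arrays. Cblc, a ubiquitin ligase gene of epithelia, differed by 0.40 ± 0.13 and the phosphatase gene Ptpn1 by 0.33 ± 0.10 (adjusted p = 0.220 and 0.211). Lrig1, a receptor inhibitor that marks stem cells of the follicle junction, read 0.28 to 0.81 on the young arrays and 0.86, -0.21 and -0.94 on aged replicates 1, 2 and 3, at -0.67 ± 0.45 (adjusted p = 0.455). Without aged replicate 1 Lrig1 differed by -1.15 ± 0.27 (limma adjusted p = 0.0785). The order of the ligands, taken from values on these same arrays and so a description, was met by 6.86% of all genes tested. Of 11 tested feedback inhibitors of the MAP kinase branch 3, the phosphatase genes Dusp1, Dusp5 and Dusp7, had this order. Dusp6, which removes phosphate from ERK, did not, with 2.40 to 2.75 on the young and 1.84 to 2.66 on the aged arrays and a difference of -0.44 ± 0.24 (adjusted p = 0.381). Spry2, above background on 5 of 6 arrays, differed by -0.22 ± 0.50, Rasa1 by 0.19 ± 0.19 and Nf1 by -0.10 ± 0.10.

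**Figure D5:**
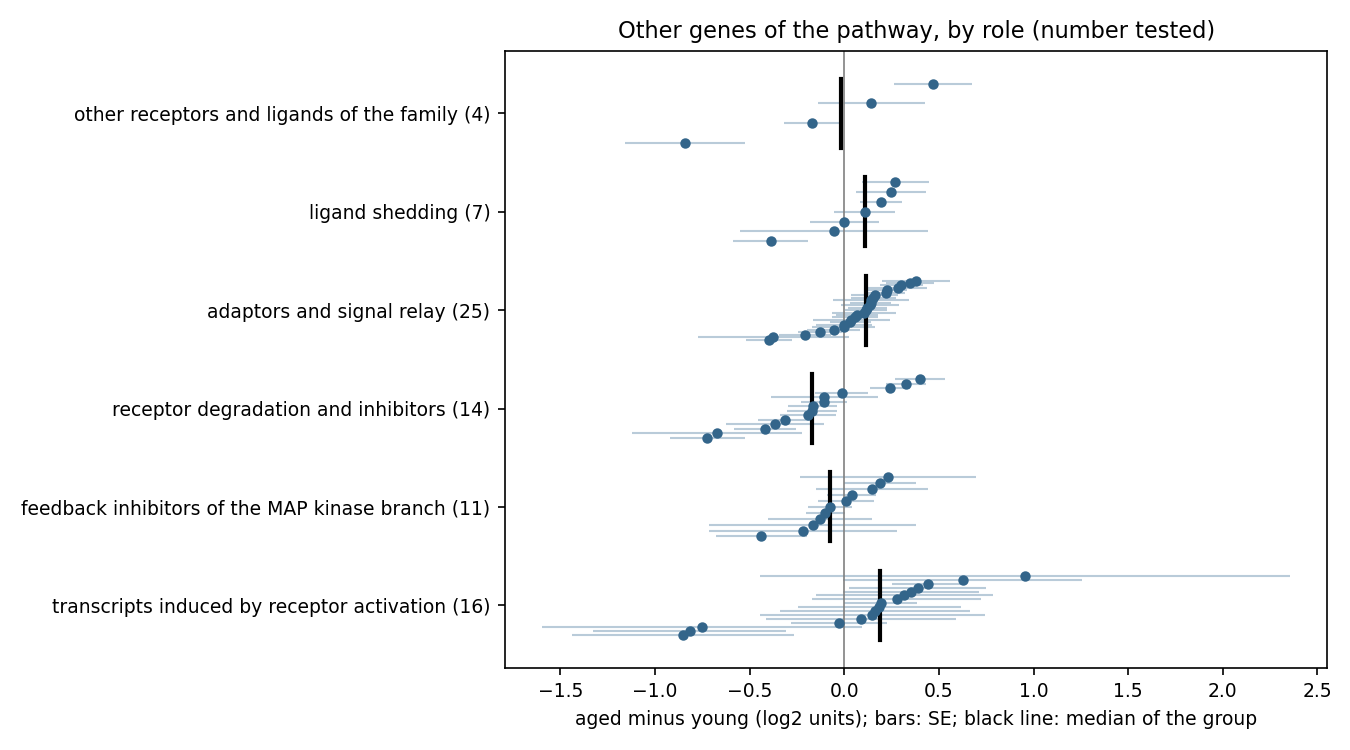
Aged minus young difference (x axis, log2 units; bars are SE from limma) of the 77 tested pathway genes outside the 10 members, by role, with the median of each role as a black line. Medians lie between -0.17 for genes of receptor degradation and inhibition and 0.19 for induced transcripts, and no gene passed the threshold.

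The genes whose pattern was most like that of Egfr across the 6 arrays were Dtymk (Pearson's r = 0.997), Tusc3 (0.995) and Larp7 (0.992). For Tgfa, the member with the smallest p, they were Tmed7 (0.997), Fzd4 (0.996) and Zdhhc12 (0.991). These were picked as the highest of all genes tested over 6 arrays and are a description.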

How the data were processed

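Per the labels' protocols, amplified RNA of each sample carried Cy3 on a 1-colour Agilent array. Feature Extraction 11.5.1.1 gave, per the file headers, the processed signal, a spot intensity on a linear scale that is background-subtracted and detrended within the array but not scaled between arrays, and the raw median signals. The authors' deposited table holds log2 values of 33870 probes, which matched the log2 intensity less the array's 75th percentile and the probe's own median, with r of at least 0.9999 per array. Its column medians were -0.01, -0.02 and -0.02 for young and -0.01, 0.02 and 0.07 for aged replicates 1, 2 and 3.

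Control spots and outlier-flagged spots were dropped, then repeated spots averaged. Probes were named by RefSeq accession, 28331 of 55681. A probe was tested if well above background on at least 3 arrays, and the brightest probe stood for a gene. Aged and young were compared with limma 3.58.1 in R 4.3.3 (lmFit, eBayes, two-sided, no covariate), with Benjamini-Hochberg adjustment over all genes and unnamed probes, and the code was tested on simulated data. An exact permutation test of single values was not used, since 3 against 3 arrays cannot reach 0.05.

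Members and lists were chosen with earlier results of these data known. Named pathway genes are, per role, up to 3 with the smallest p among those above background on all arrays, plus Erbb4, Egf, Nrg1, Adam17, Lrig1, Spry2, Dusp6 and Egr1. For likeness, the 3 genes of highest r with Egfr and with the member of smallest p were taken. The titles give both groups the numbers 1 to 3, and for each number the 2 samples' deviations from their groups' means correlated, with r of 0.414, 0.259 and 0.102. These all exceed 0.1, the last only slightly, which is at most weak evidence of pairing, and no label gives a reason for it. The highest r was that of replicate 1, whose 2 samples both carried Y-linked transcripts, and the part of this was not tested. A fit with the replicate number as a block was therefore added, and is given beside the count it changed. Differences, SE and p-values of single genes elsewhere in the text come from fits without this block. The block changed the SE of Tgfa from 0.22 to 0.11 and that of Errfi1 from 0.35 to 0.40. Tgfa did not pass with it (limma adjusted p = 0.166). Alternatives covered background correction, scaling, filters, probe choice, array weights, the prior, slide row, the authors' table and left-out arrays. Normexp with an offset of 50 used the median signals, and array weights were computed gene by gene; these choices and the count of ligands in 1 order were added after seeing the data.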

Additional observations from a re-analysis of the deposited data

How the results depend on the processing

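The count of genes past the threshold, 11 with all arrays, was 7 with quantile normalization, 21 with scaling to the median and 18 with a trended robust prior. It was 3 among probes above background on all 6 arrays and 1 with no filter on dim probes. With array weights, which gave aged replicate 1 a low weight, the count was 1764. It was 0 with the replicate block and with slide row blocked, which leaves 1 young array to compare with the aged ones, with 2690 and 846 genes at an unadjusted p under 0.05 in limma. It was 239 with replicate 1 of both groups left out, and 0 to 818 when single arrays were left out, the highest without aged replicate 1; the 0 counts had 1311 to 2373 at an unadjusted p under 0.05. The count of members past the threshold was 0 in every alternative, the replicate block included, except 2 without aged replicate 1, a range of 0 to 2 over single arrays left out. The count of pathway genes was 5 with array weights and 0 to 3 with single arrays left out, the highest without aged replicate 1.

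Signs turned for Erbb2 with quantile normalization (-0.023), Erbb3 with the slide row (-0.044), Areg with array weights (0.30) and with replicate 1 of both groups left out (0.43), Ereg with scaling to the median (0.036), array weights (0.40) and both replicates 1 left out (0.58), and Errfi1 with array weights (0.061) and both replicates 1 left out (0.28). With single arrays left out the differences ranged from -0.48 to 0.56 for Areg, -0.43 to 0.66 for Ereg, -0.051 to 1.65 for Epgn, -0.016 to 1.29 for Hbegf, -0.51 to 0.13 for Errfi1 and -0.043 to 0.21 for Erbb2. The signs of Egfr, Btc and Tgfa were kept in every alternative. The cause was not tested. The count of 4 ligands with the 22-month array lowest and the 25-month arrays highest was the same genes in all 7 alternatives of scaling, filter, probe choice and source. Of the members, Erbb3 and Tgfa read nearest the lower limit of detection, so signal over background limits these most.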
